A study of Mus musculus with 6 samples.

Results

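Aminoacyl-tRNA synthetases are the enzymes that load each amino acid onto its tRNA, and 36 of their genes were followed here: 20 for enzymes of the cytosol and 16 for enzymes of the mitochondrion, out of 55401 genes in the table. Within the family the genes were taken by symbol, and symbols ending in 2 were counted as mitochondrial. The family itself was chosen by its measured differences between LPS and Vehicle in these same libraries, so the counts and medians below describe the genes and are not independent evidence of a direction. RNA was sequenced after selection of poly(A) transcripts in BV2 cells, an immortalised line of mouse microglia, the resident macrophages of the brain. There were 3 libraries of cells given lipopolysaccharide (LPS), the surface glycolipid of Gram-negative bacteria that activates macrophages through the receptor Tlr4, and 3 libraries of cells given vehicle. All came from 1 cell line with no genetic change named in the labels, and the labels gave neither dose nor duration. Whether each library had a culture of its own was not stated, so p-values reflect no more than the spread among the libraries at hand, which may be technical.

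Cytosolic protein synthesis and the translation of mitochondrial DNA use separate sets of tRNAs, so most amino acids have a cytosolic and a mitochondrial synthetase, each encoded in the nucleus. In mammals Gars and Kars are exceptions, since a single gene supplies glycyl- or lysyl-tRNA synthetase to both compartments. Qars has no mitochondrial counterpart because mitochondria make glutaminyl-tRNA by converting glutamyl-tRNA. Many cytosolic synthetase genes are known targets of Atf4, the transcription factor of the integrated stress response, which is switched on when the initiation factor eIF2 is phosphorylated. Macrophages activated by LPS make large amounts of new cytokine protein and take up more amino acids.

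Estimated counts per library totalled 45969690 to 59023474, and values are given as CPM, the share of a library's counts scaled by the TMM method. All 36 synthetase genes passed the filter on low counts, with 156 counts as the lowest value, for Pars2 in LPS 1. All 10 microglial and macrophage markers were detected and their summed level was 2230 to 2790 CPM in LPS and 2760 to 3060 CPM in Vehicle. Cd68 was the largest part of this sum, with means of 918 CPM in LPS and 959 CPM in Vehicle. Aif1 was near the floor, with means of 2.01 CPM in LPS and 3.2 CPM in Vehicle. Of the 10 microglial markers 1 was called higher and 3 lower, against 12.7% and 10.9% of all tested genes, and 6 were not called. Adgre1 rose, with 241, 247 and 181 CPM in LPS, against 134, 136 and 135 CPM in Vehicle. Csf1r, Laptm5 and Tyrobp fell. The largest fall was that of Csf1r, a receptor of microglia and macrophages. It had 86.2, 87.6 and 87.3 CPM in LPS, against 237, 226 and 233 CPM in Vehicle. The part of such shifts in the results below was not tested. In bulk RNA of 1 cell line, a change in some of the cells and a change in all of them cannot be told apart. The 5 markers each of astrocytes, neurons and oligodendrocytes summed to at most 10.6 CPM in any library. The highest single value among them, 5.73 CPM for Slc1a2 in Vehicle 2, was above Aif1 in every library. Treatment with LPS was visible in Tnf, a cytokine gene, at 952, 1130 and 1020 CPM in the LPS libraries, against 91.3, 103 and 101 CPM in the Vehicle libraries.

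Of the 20 cytosolic synthetase genes 11 were higher with LPS and none was lower. Of the 16 mitochondrial synthetase genes 1 was higher and 3 were lower. Calls are from edgeR's quasi-likelihood test over 16371 genes at a Benjamini-Hochberg adjusted p under 0.05, which called 12.7% of all tested genes higher and 10.9% lower (23.6% in all). Among 16 genes, the mitochondrial counts lay near these shares. The other 9 cytosolic and 12 mitochondrial genes did not pass. The median log2 fold change, LPS over Vehicle, was 0.36 for the cytosolic genes, 0.02 for the mitochondrial genes and -0.02 for all tested genes. Among the cytosolic genes 18 of 20 had a fitted change above 0, against 9 of 16 mitochondrial genes. Every LPS library lay above every Vehicle library for 13 cytosolic and 3 mitochondrial genes, where 20.8% of all tested genes did so. Every LPS library lay below every Vehicle library for none of the cytosolic and 5 of the mitochondrial genes, where 20.0% of all tested genes did so. For the 16 mitochondrial genes these counts by range, 3 and 5, were again not far from the shares over all tested genes.

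The number of cytosolic genes called higher was 7 without LPS 2, 7 without Vehicle 1, 7 without Vehicle 2 and 7 with libraries scaled by total counts only. Aars, Cars, Gars, Iars, Nars, Rars and Sars were called under each of 16 alternative settings. With total counts only, 42.2% of all calls were higher in LPS, against 53.9% with TMM, and the median of the mitochondrial genes was -0.07.

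**Figure D1:**
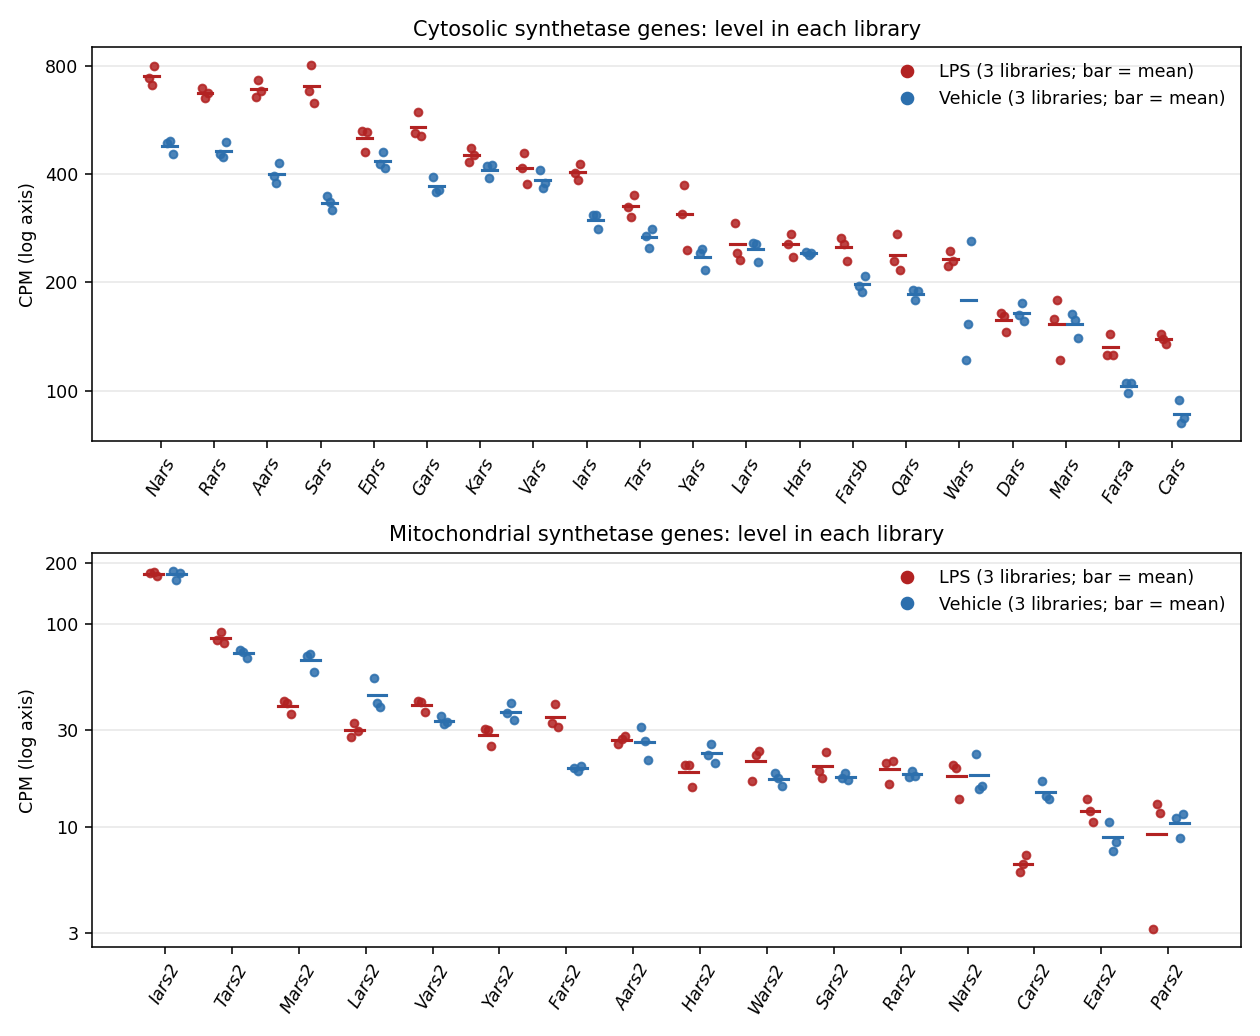
Level of each synthetase gene in CPM (vertical log axis) for the 20 cytosolic genes (top) and the 16 mitochondrial genes (bottom), with 1 point per library and a bar at the mean of the 3 libraries, LPS on the left of each pair and Vehicle on the right. Sars, Aars, Nars and Rars stand apart between the groups, Wars is high in 1 Vehicle library, and Pars2 is low in 1 LPS library.

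Summed over its members, the cytosolic group took 7558, 7853 and 7346 CPM in LPS 1, 2 and 3, against 5695, 5557 and 5671 CPM in Vehicle 1, 2 and 3. The means were 7586 ± 254 CPM in LPS and 5641 ± 74.1 CPM in Vehicle (SD, n = 3 each), so the sum was 34.5% larger with LPS. The mitochondrial group summed to 582.3, 612.1 and 566.7 CPM in LPS, against 640.4, 595.5 and 572.8 CPM in Vehicle, and these ranges overlap. The ratio of the cytosolic to the mitochondrial sum, which does not depend on the scaling of libraries, was 13.0, 12.8 and 13.0 in LPS and 8.89, 9.33 and 9.90 in Vehicle. The lowest LPS ratio was above the highest Vehicle ratio. Sars, Aars, Nars, Rars and Gars, the 5 genes that added most, made up 67.4% of the 1945 CPM by which the cytosolic sum was larger in LPS.

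**Figure D2:**
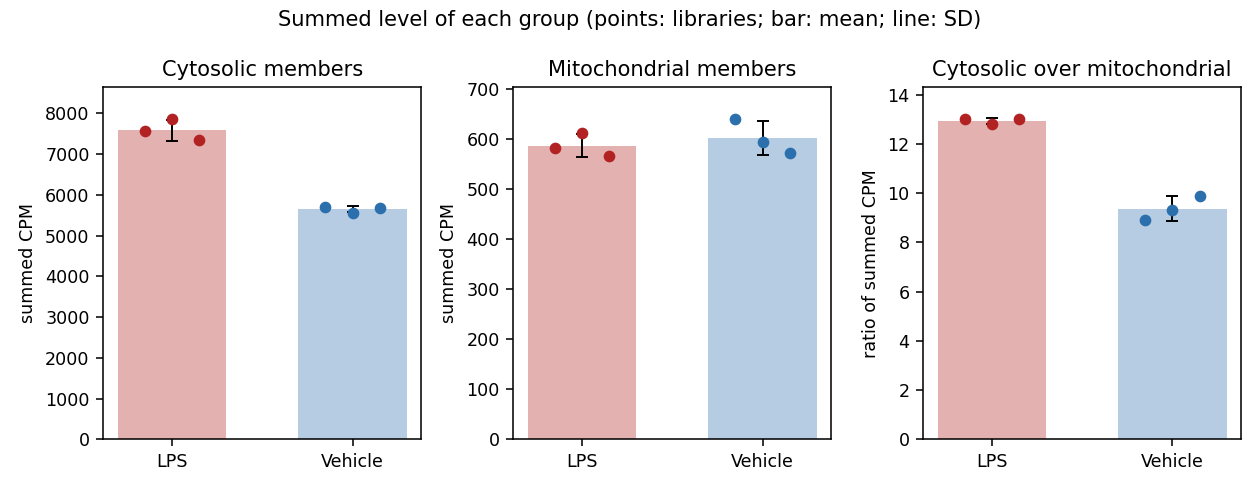
Summed CPM of the 20 cytosolic genes (left), of the 16 mitochondrial genes (middle) and the ratio of these sums (right), with a point per library, a bar for the mean and a line for the SD (n = 3 each), LPS left of Vehicle. The cytosolic sum and the ratio are apart between groups, the mitochondrial sum overlaps.

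Promoter windows from RefSeq (GRCm38.p6, 250 bases before to 50 after the annotated start) were found for 27 of the 36 genes, 13 cytosolic and 14 mitochondrial. Those without one were Cars, Hars, Lars, Nars, Rars, Vars, Wars, Hars2 and Pars2. Windows were searched on both strands for TGATGCAA, the core of the C/EBP-ATF response element through which Atf4 acts, and for the E-box CACGTG, bound by Myc and by related factors. The C/EBP-ATF letters stood in windows of 4 of 13 cytosolic genes (30.8%, Aars, Iars, Tars and Yars) and of 0 of 14 mitochondrial genes. They stood in those of 1.03% of 27025 genes with windows of the same length and 0.803% of the 10588 tested genes among them. At such shares few or no matches are to be found among 14 genes in any case. Some genes had several windows, with a mean of 1 for cytosolic, 1.07 for mitochondrial, 1.22 for all and 1.28 for tested genes. With 1 base left free (TGATGNAA, which holds the first motif within it), Gars joined these and the share was 38.5% of the cytosolic genes, 0% of the mitochondrial genes, 4.51% of all genes and 2.9% of tested genes. The E-box stood in windows of 4 cytosolic genes (30.8%, Aars, Farsb, Iars and Tars) and of 1 mitochondrial gene (7.14%, Ears2), against 8.09% of all genes and 11.6% of tested genes. Of the 4 genes with the C/EBP-ATF letters, Aars, Iars and Tars rose and Yars did not pass the test. Sars, with the largest change, held neither motif in its window. A match describes letters only and is no evidence of binding. The 4 windows with the C/EBP-ATF letters are shown for the place of the element in them, in lower case 5′ to 3′ along the gene, with capitals for TGATGNAA, for its reverse complement and for CACGTG. The window of Aars is chr8:111033592-111033891 (plus strand), that of Iars chr13:49681880-49682179 (plus strand), that of Tars chr15:11399609-11399908 (minus strand) and that of Yars chr4:129189653-129189952 (plus strand).
Aars: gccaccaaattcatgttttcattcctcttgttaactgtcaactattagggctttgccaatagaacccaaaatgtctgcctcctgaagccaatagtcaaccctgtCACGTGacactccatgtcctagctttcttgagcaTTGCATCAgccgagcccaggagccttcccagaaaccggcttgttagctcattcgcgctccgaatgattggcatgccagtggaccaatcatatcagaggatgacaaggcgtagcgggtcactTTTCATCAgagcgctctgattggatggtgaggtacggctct
Iars: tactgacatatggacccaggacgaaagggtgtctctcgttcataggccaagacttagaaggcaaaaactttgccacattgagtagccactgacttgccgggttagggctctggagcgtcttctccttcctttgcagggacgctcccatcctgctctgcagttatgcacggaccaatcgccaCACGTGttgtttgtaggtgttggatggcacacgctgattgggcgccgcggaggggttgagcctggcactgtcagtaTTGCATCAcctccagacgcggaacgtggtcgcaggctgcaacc
Tars: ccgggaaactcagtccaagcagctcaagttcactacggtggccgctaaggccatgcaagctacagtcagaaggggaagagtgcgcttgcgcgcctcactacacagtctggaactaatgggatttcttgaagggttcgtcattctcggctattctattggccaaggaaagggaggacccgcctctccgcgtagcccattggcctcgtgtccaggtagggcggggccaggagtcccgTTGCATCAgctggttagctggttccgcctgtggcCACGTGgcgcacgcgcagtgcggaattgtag
Yars: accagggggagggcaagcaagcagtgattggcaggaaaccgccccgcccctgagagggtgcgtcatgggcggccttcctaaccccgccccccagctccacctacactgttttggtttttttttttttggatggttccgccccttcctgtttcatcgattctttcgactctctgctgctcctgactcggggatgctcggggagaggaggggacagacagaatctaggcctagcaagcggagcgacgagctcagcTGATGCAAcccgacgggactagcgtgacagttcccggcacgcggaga
The C/EBP-ATF letters run along the gene in Yars and on the opposite strand in Aars, Iars and Tars. They begin at position -112 from the start in Aars, with an E-box at -146, at -15 in Tars, and just after the start in Iars and Yars, at 8 and 4.

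**Figure D3:**
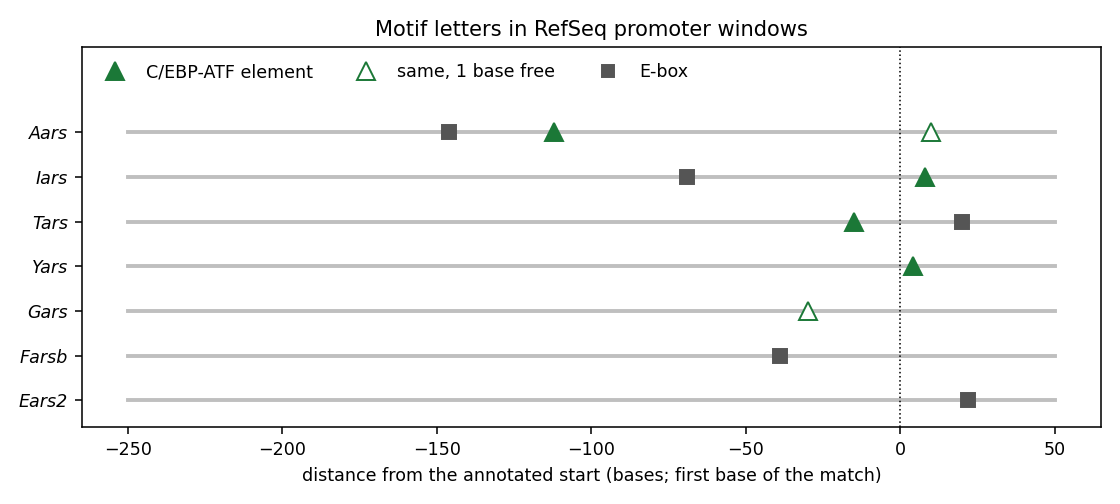
Position of the motif letters in the 300-base promoter windows of the 7 synthetase genes that hold any, as the distance in bases of the first base of the match from the annotated start (dotted line). Filled triangles mark the C/EBP-ATF element, open triangles the same with 1 base free, and squares the E-box. The filled triangles of Iars, Tars and Yars lie within 15 bases of the start and that of Aars at -112.

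Among cytosolic enzymes that work outside the multisynthetase complex, a large assembly that holds several synthetases together in animal cells, 8 of 12 rose, none fell and the median was 0.39 on the log2 scale. The share called higher among all tested genes was 12.7%. Sars, which charges serine tRNA and also the tRNA that will carry selenocysteine, had the largest change of the family. Its values were 679, 803 and 630 CPM in the LPS libraries, against 348, 334 and 318 CPM in the Vehicle libraries, a 2.11-fold rise (log2 fold change 1.08 ± 0.11, SE; edgeR adjusted p = 0.000283). The lowest LPS value was well above the highest Vehicle value.

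Aars, the alanine enzyme, had 655, 732 and 682 CPM in LPS, against 395, 378 and 430 CPM in Vehicle, a 1.72-fold rise (0.78 ± 0.09; adjusted p = 0.000522). Cars, the cysteine enzyme, had 144, 139 and 135 CPM in LPS, against 94.0, 81.1 and 83.8 CPM in Vehicle. Nars, for asparagine, had 738, 710 and 801 CPM in LPS, against 489, 496 and 454 CPM in Vehicle. Groups did not overlap for any of these, and the folds of Cars and Nars were 1.61 and 1.56. Asparagine is also the product of Asns, asparagine synthetase, which is treated below with the other stress-response genes.

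Gars, the glycine enzyme of cytosol and mitochondrion alike, had 520, 595 and 512 CPM in LPS, against 392, 357 and 362 CPM in Vehicle, a 1.46-fold rise. Farsa and Farsb encode the α and β subunits of the single cytosolic phenylalanine enzyme, which needs both. Farsa had 126, 144 and 126 CPM in LPS, against 105, 98.3 and 105 CPM in Vehicle, and Farsb had 266, 255 and 230 CPM in LPS, against 196, 188 and 209 CPM in Vehicle. Their folds were alike, 1.28 for Farsa and 1.27 for Farsb, and so were the adjusted p of 0.0236 and 0.0265. The call of each was lost without LPS 2 or any 1 Vehicle library, and that of Farsb also without LPS 1, with adjusted p up to 0.119. Tars, for threonine, had 324, 305 and 350 CPM in LPS, against 269, 249 and 281 CPM in Vehicle. Its adjusted p of 0.0472 was close to the threshold, and the call was lost whenever any library was left out, with values up to 0.185. It was also lost with DESeq2 size factors (0.0564), upper quartile scaling (0.0704), total counts only (0.164) and no filter (0.0562). With total counts only Farsa and Farsb lost theirs too (0.0538 and 0.0678).

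Hars, Vars, Wars and Yars did not pass the test. Hars, for histidine, had 255, 273 and 236 CPM in LPS, against 243, 238 and 242 CPM in Vehicle, so the Vehicle values lie inside the LPS range. Wars, whose human form is induced by interferon gamma, had 222, 244 and 230 CPM in LPS, against 122, 153 and 261 CPM in Vehicle. Vehicle 3 was above all LPS libraries, and the SD of Wars in Vehicle was 40.8% of its mean, the largest among cytosolic genes. Without Vehicle 3 the log2 fold change of Wars was 0.75 in place of 0.38 and its edgeR adjusted p was 0.00912 in place of 0.371. Leaving out Vehicle 1 or Vehicle 2 instead lowered the change of Wars to 0.17 or 0.28, with edgeR adjusted p of 0.65 and 0.62. Yars, for tyrosine, had 310, 372 and 246 CPM in LPS, against 241, 247 and 217 CPM in Vehicle. LPS 3 lay just below the highest Vehicle library, and without LPS 3 the edgeR adjusted p of Yars was 0.00549 in place of 0.0838. Without LPS 2 it was 0.234, and the log2 fold change of Yars was 0.24 in place of 0.40.

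Of the enzymes of the multisynthetase complex 3 of 8 rose, where 12.7% of all tested genes did so. None fell and the median was 0.17 on the log2 scale. The difference between complex and free enzymes was not tested. Rars, the arginine enzyme, had 696, 651 and 674 CPM in LPS, against 455, 447 and 491 CPM in Vehicle, a 1.45-fold rise (0.54 ± 0.08; adjusted p = 0.00198). Iars, for isoleucine, had 403, 385 and 427 CPM in LPS, against 308, 308 and 282 CPM in Vehicle, a 1.35-fold rise. Qars, for glutamine, had 230, 272 and 216 CPM in LPS, against 191, 179 and 189 CPM in Vehicle. All 3 genes were apart between groups, and the call of Qars (adjusted p = 0.0346) was lost without any library but LPS 3, with values up to 0.127, and with total counts only (0.067).

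The remaining 5 complex enzymes did not pass. Eprs, a fused glutamate and proline enzyme that in human myeloid cells also belongs to a translation-silencing complex, had 527, 462 and 524 CPM in LPS, against 428, 462 and 417 CPM in Vehicle. Kars had 431, 473 and 451 CPM in LPS, against 422, 390 and 425 CPM in Vehicle. Each was above Vehicle in every LPS library, Eprs by less than the rounding of the values above, but their log2 fold changes of 0.21 ± 0.09 and 0.13 ± 0.08 had adjusted p of 0.126 and 0.285. Dars, for aspartate, had the lowest log2 fold change of the cytosolic genes, -0.07 ± 0.09, with 164, 161 and 146 CPM in LPS, against 162, 175 and 156 CPM in Vehicle. Lars and Mars, for leucine and methionine, were not called either, at 1.03-fold for Lars and 0.997-fold for Mars.

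Synthetases fall into classes by the fold of the catalytic domain. Eprs was counted in class I by its glutamate part, although its proline part is of class II. In class I 4 of 10 cytosolic genes rose (median 0.37 on the log2 scale), and in class II 7 of 10 rose, with a median of 0.35. Among all tested genes 12.7% were called higher. The scaffold genes of the complex, Aimp1, Aimp2 and Eef1e1, were not called. Aimp1 had 96.2, 114 and 92.6 CPM in LPS, against 80.1, 94.6 and 72.6 CPM in Vehicle, a log2 fold change of 0.29 ± 0.13 with an adjusted p of 0.138. Tarsl2, a second cytosolic threonine enzyme outside the list, fell, with 3.40, 3.05 and 2.36 CPM in LPS, against 5.16, 6.67 and 5.66 CPM in Vehicle. The log2 fold change of Tarsl2 was -0.98 ± 0.23 (adjusted p = 0.0164), opposite in sign to that of Tars.

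**Figure D4:**
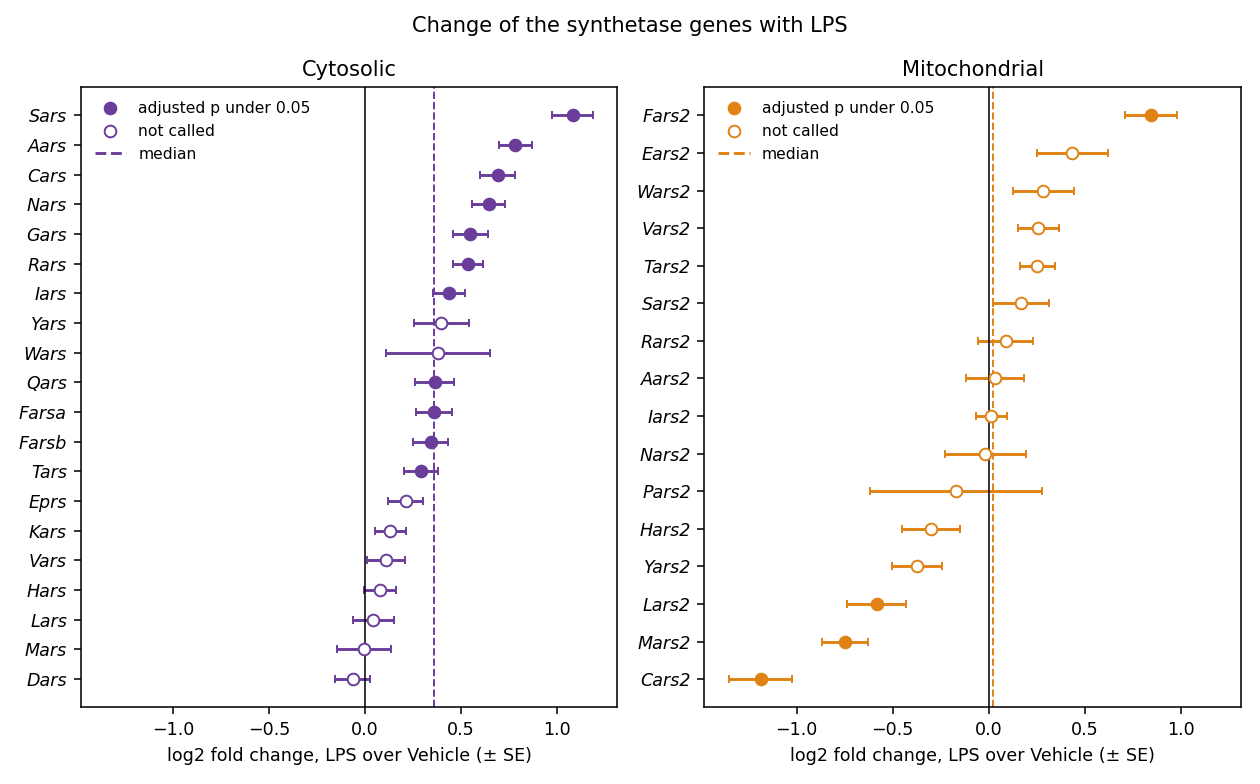
Log2 fold change, LPS over Vehicle, with its SE from edgeR (horizontal axis) for each cytosolic gene (left) and mitochondrial gene (right), filled where the adjusted p was under 0.05. The cytosolic genes reach from -0.07 to 1.08 around a median of 0.36, and the mitochondrial genes from -1.19 to 0.84 around a median of 0.02.

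Of the 4 called mitochondrial genes, Cars2, Mars2 and Lars2 fell and Fars2 rose. Cars2, the mitochondrial cysteine enzyme, which in mice also makes cysteine persulfides, had 5.95, 6.56 and 7.24 CPM in LPS, against 16.9, 14.2 and 13.7 CPM in Vehicle. It was 2.28-fold lower in LPS (log2 fold change -1.19 ± 0.17; adjusted p = 0.00147), whereas its cytosolic counterpart Cars was 1.61-fold higher. Mars2, which charges the single mitochondrial methionine tRNA used both to start and to extend proteins, had 41.6, 40.9 and 36.0 CPM in LPS, against 69.6, 71.6 and 57.9 CPM in Vehicle, and was 1.68-fold lower. The groups of both genes were apart.

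Lars2, the mitochondrial leucine enzyme, had 27.7, 32.5 and 29.6 CPM in LPS, against 54.5, 40.7 and 39.1 CPM in Vehicle, a log2 fold change of -0.58 ± 0.15 (adjusted p = 0.0249). Vehicle 1 was the highest library for Lars2, and its call was lost without Vehicle 1 or without LPS 1, with adjusted p of 0.0802 and 0.0726. Fars2, the mitochondrial phenylalanine enzyme, a single chain unlike its cytosolic counterpart, had 32.7, 40.5 and 31.1 CPM in LPS, against 19.4, 18.9 and 19.9 CPM in Vehicle. It was 1.79-fold higher (0.84 ± 0.14; adjusted p = 0.00293), with no overlap between groups. Cars2, Mars2 and Fars2 were called under each of the 16 alternative settings.

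The other 12 mitochondrial genes did not pass. Iars2, the most abundant of them, had 179, 181 and 172 CPM in LPS, against 183, 166 and 178 CPM in Vehicle, a log2 fold change of 0.01 ± 0.08. Tars2 had 84.0, 91.2 and 81.1 CPM in LPS, against 74.2, 72.5 and 68.3 CPM in Vehicle, with every LPS library higher but an adjusted p of 0.0805. Yars2 had 30.5, 30 and 25.0 CPM in LPS, against 36.3, 40.7 and 33.8 CPM in Vehicle, with every LPS library lower and an adjusted p of 0.0687. DESeq2, a stricter filter on low counts and scaling by total counts each called Yars2 lower. Ears2, for glutamate, had 13.7, 12.0 and 10.5 CPM in LPS, against 10.6, 7.58 and 8.43 CPM in Vehicle. LPS 3 and Vehicle 1 were the only pair out of order for Ears2.

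Pars2, for proline, had 3.12, 12.9 and 11.7 CPM in LPS, against 11.0, 8.79 and 11.5 CPM in Vehicle. LPS 1 alone was low, at 156 counts, and the SD of Pars2 in LPS was 57.7% of its mean, the largest of the 36 genes. The remaining genes (Aars2, Hars2, Nars2, Rars2, Sars2, Vars2 and Wars2) had log2 fold changes between -0.30 for Hars2 and 0.28 for Wars2. Genes for the enzymes that convert glutamyl-tRNA to glutaminyl-tRNA in mitochondria (Qrsl1, Gatb and Gatc) and for Mtfmt, which formylates the initiator methionyl-tRNA, were not called. Nor were the proofreading genes Aarsd1, Prorsd1, Dtd1 and Dtd2, of which Prorsd1 had the smallest adjusted p, 0.0508.

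Set side by side for the same amino acid, the cytosolic gene had the larger log2 fold change in 13 of 17 pairs (Farsa and Farsb were each paired with Fars2, and Eprs with Ears2 and Pars2, so the pairs are not independent). The widest difference was for cysteine, where Cars had 0.69 and Cars2 -1.19. Serine followed, with 1.08 for Sars and 0.17 for Sars2. Tyrosine had 0.40 for Yars and -0.37 for Yars2, and methionine had a 0.997-fold change for Mars with -0.75 on the log2 scale for Mars2. The order was the other way for phenylalanine, where Fars2 had 0.84 and Farsa and Farsb 0.36 and 0.34. It was so too for glutamate, with 0.44 ± 0.18 for Ears2 and 0.21 ± 0.09 for Eprs, and for valine, with 0.26 ± 0.11 for Vars2 and 0.11 ± 0.10 for Vars. In the glutamate and valine pairs the SE ranges overlapped and no gene was called. For threonine the values of 0.29 for Tars and 0.25 for Tars2 differed by less than their SE of 0.09 each. Wars and Wars2, at 0.38 ± 0.27 and 0.28 ± 0.16, differed by less than their SE too. Eprs and Pars2, at 0.21 ± 0.09 and -0.17 ± 0.45, differed by less than the SE of Pars2. Without LPS 1 the order of Eprs and Pars2 was reversed, at 0.17 and 0.23.

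**Figure D5:**
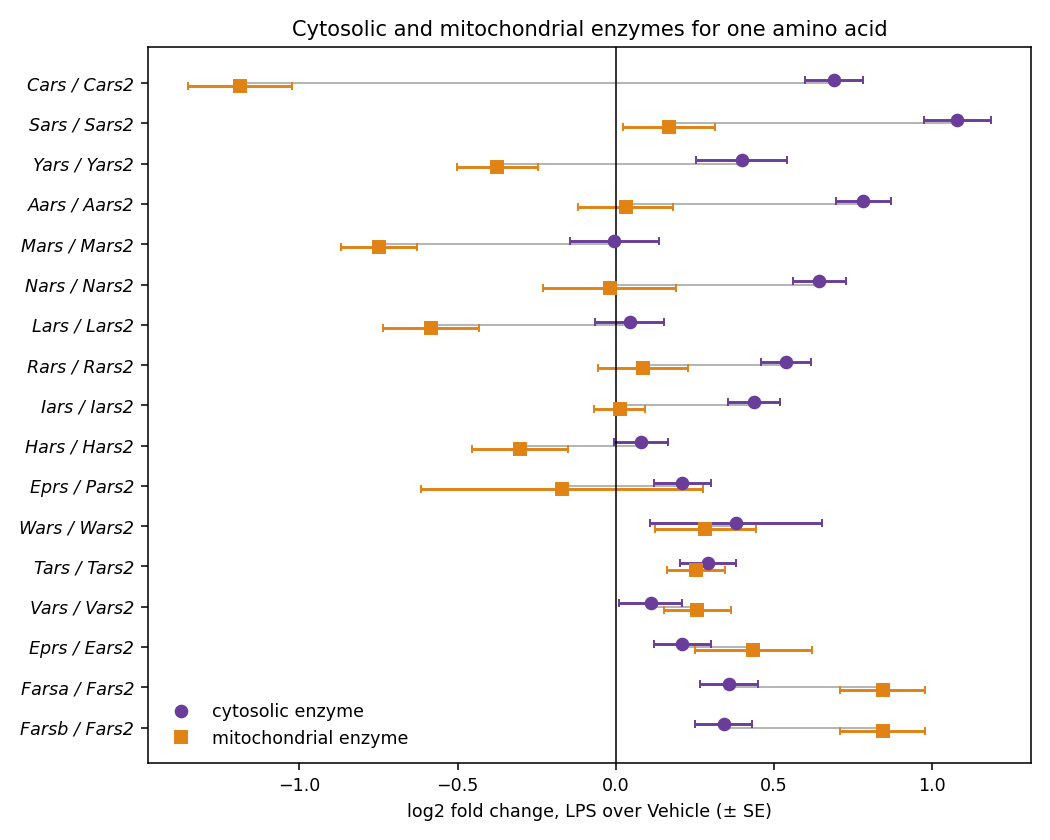
Log2 fold change, LPS over Vehicle, with its SE (horizontal axis) of the cytosolic (circles) and mitochondrial (squares) enzyme for the same amino acid, ordered by the difference between them. The cysteine pair is widest apart. The phenylalanine pairs run in the opposite order, as do the glutamate and valine pairs, whose SE ranges overlap.

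Levels were compared between genes as CPM per kilobase of the longest annotated transcript. The cytosolic genes had a median of 96.2 CPM per kilobase in LPS (39.4 to 319) and of 76.4 in Vehicle (26.8 to 220), against 7.87 in LPS (2.10 to 32.4) and 7.22 in Vehicle (1.81 to 32.1) for the mitochondrial genes. In 17 of 17 pairs the cytosolic gene was the more abundant, in LPS and in Vehicle alike, also with the length of the principal transcript. By the mean of both groups Rars, Nars and Gars were the most abundant cytosolic genes, at 319, 273 and 228 CPM per kilobase in LPS, against 220, 175 and 156 in Vehicle. Kars, at 187 in LPS and 170 in Vehicle, was above Gars in Vehicle, and above it by the mean of both groups with the principal transcript. Mars, Farsa and Cars were the least abundant, in LPS and in Vehicle, at 49.9, 39.4 and 43.3 in LPS, against 50.1, 30.8 and 26.8 in Vehicle. With the principal transcript Farsa was above Mars in both groups, at 72.3 in LPS and 56.4 in Vehicle, and above Lars in LPS only. Iars2 and Tars2 led the mitochondrial genes with 32.4 and 23.6 CPM per kilobase in LPS, against 32.1 and 19.8 in Vehicle. Yars2 came next in Vehicle, with 10.2 in LPS and 13.2 in Vehicle, while Sars2 came next in LPS, with 10.6 in LPS and 9.47 in Vehicle. Iars2 per kilobase was below every cytosolic gene in LPS and above Farsa and Cars in Vehicle. These orders depended in part on the transcript. With the principal transcript Tars2 was above Iars2 in LPS, at 35.6 against 32.4. Yars2 and Fars2 came next in LPS, at 18.1 and 16.4, above Sars2 at 10.7. Iars2 in Vehicle, at 32.2, was then above Cars (26.8) but below Farsa. Iars was 2.82 times as high as Iars2 in LPS and 2.11 times in Vehicle. Nars was 57.7 times as high as Nars2 in LPS and 36.7 times in Vehicle.

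Exons of 13 of the 36 genes overlap an annotated gene on the opposite strand, and the library kit was not stated to keep the strand, so reads there cannot be assigned with certainty. Mars shares 68 exon bases with Ddit3, a stress-response gene that rose 4.61-fold, while Mars itself was at 0.997-fold. Hars and Hars2 share 195 exon bases with each other. Farsb shares 248 exon bases with Sgpp2, which rose (log2 fold change 1.72 ± 0.30), and Yars shares 30 with C77080, which rose too (0.37 ± 0.08). Iars2 shares 2034 exon bases with Rab3gap2, whose log2 fold change was -0.24 ± 0.08. Fars2 shares 501 exon bases with Nrn1 and 115 with Lyrm4, and Cars2 shares 422 with Naxd, none of which was called. Aars shares 1326 exon bases on the same strand with Exosc6, which was not called either. Part of each value in these genes may belong to the partner, and this was not tested.

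Genes of the Atf4 arm of the integrated stress response, a list that was chosen with earlier results of these libraries known, were higher in 18 of 31 tested cases and lower in 1. Of all tested genes 12.7% were called higher and 10.9% lower. The median of the list was 0.79 on the log2 scale. Atf4 itself had 485, 463 and 471 CPM in LPS, against 258, 429 and 247 CPM in Vehicle. Every LPS library was above Vehicle, but Vehicle 2 was close to them and the adjusted p was 0.0792. Ddit3, a pro-apoptotic partner of Atf4, had 140, 144 and 99.2 CPM in LPS, against 28.5, 27.1 and 27.6 CPM in Vehicle. Trib3, which encodes an inhibitor of Akt, rose 3.15-fold and Chac1, a glutathione-degrading enzyme, 4.03-fold. Asns, the asparagine synthetase gene, had 351, 392 and 331 CPM in LPS, against 182, 197 and 210 CPM in Vehicle. Slc7a11, the cystine importer, had the largest change of the list, 6.57-fold, and Atf3 rose 4.02-fold.

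Not all of the list moved. Psat1, Phgdh and Shmt2, enzymes of serine and glycine synthesis, were not called, with log2 fold changes of 0.13 ± 0.14, 0.16 ± 0.14 and 0.03 ± 0.08. Xpot, which exports tRNA from the nucleus, was the 1 gene that fell, with 251, 234 and 233 CPM in LPS, against 308, 294 and 287 CPM in Vehicle (adjusted p = 0.0249). The call of Xpot was lost without LPS 2 or without any 1 Vehicle library. None of the 4 eIF2α kinase genes (Eif2ak1 to Eif2ak4) was called, and their log2 fold changes lay between -0.16 and 0.05.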

How the data were processed

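Poly(A)-selected RNA of 3 LPS and 3 Vehicle libraries was sequenced, per the labels' protocols. The deposited values are estimated counts per gene, given as whole numbers. The tools named, with no role for each, were HISAT2, DESeq2, StringTie 1.3.1 and Bowtie2 2.2.8, per the submitters' processing notes, and the genome build was not given in the sources used here. In each library low values lay on steps of 3.81 to 3.93 counts, so a value is not a number of sequenced fragments, and counting precision is lower than the totals of 45969690 to 59023474 imply. Names were assigned by Ensembl ID from GENCODE M21 to 55141 of 55401 genes, and all table columns were mapped to samples.

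Genes were filtered with filterByExpr (minimum count 10, minimum total 15), scaled by TMM and tested two-sided with edgeR 4.0.16 (quasi-likelihood F-test, robust) in R 4.3.3, with Benjamini-Hochberg adjustment over 16371 genes and calls at 0.05. The procedure was tested on simulated counts, but no error rate from them is given here, so they lend no weight to the calls above. CPM are TMM-scaled. Levels per kilobase use the longest GENCODE transcript, and promoter windows are from RefSeq. Sums, medians and pairs carry no test. The 36 genes, the other lists and the naming rule were chosen with earlier results of these data known. The rule named called genes, the 3 highest and 3 lowest per kilobase in each group, and a fixed set of further genes, and the other synthetase genes are named to account for every member.

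Alternatives were other scalings, filters, DESeq2 1.42.0, limma 3.58.1 (voom), edgeR's earlier quasi-likelihood method, values divided by their step, a replicate block and each library left out. The length of the principal transcript was added after seeing the data. Protein comparisons were planned and not made, as no protein sequences were used here.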

Additional observations from a re-analysis of the deposited data

How the results depend on the processing

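No synthetase gene changed sign with a call under any of the 16 alternatives to the test. With total counts only, 7 cytosolic genes were called higher, the median log2 fold change was 0.27 for cytosolic and -0.065 for mitochondrial genes, and the cytosolic sum was 1.26-fold that of Vehicle in place of 1.34-fold. Leaving out 1 library at a time gave 1291 to 2450 genes called higher and 1053 to 2085 called lower over the table, 7 to 11 cytosolic genes higher and 0 lower, and 1 to 2 mitochondrial genes higher and 2 to 3 lower. The second mitochondrial gene called higher, without LPS 3, was Tars2. The median was 0.31 to 0.39 for cytosolic and -0.040 to 0.12 for mitochondrial genes (0.12 without Vehicle 1). The summed cytosolic ratio was 1.32 to 1.36. With 1 base of the motif free, 4.51% of all genes with windows held it, in place of 1.03%. The causes were not tested. With the replicate number as a block, 2033 genes were higher and 1783 lower, with 11 cytosolic genes higher and 1 mitochondrial higher and 3 lower. Qars lost its call (adjusted p = 0.055) and Yars gained one (0.0414). Same-numbered libraries deviated together only weakly (correlations of 0.077, 0.046 and 0.06), each library correlating best with its own number, and the labels do not say that numbers pair cultures. With 3 libraries a group, unknown dose and time, and values on steps of several counts, changes under about 1.3-fold, such as those of Tars, Farsa and Farsb, lay near what these libraries could call.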

Other observations

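The following values were chosen after they were seen. LPS 1 stood apart for Pars2, at 3.12 CPM against 12.9 and 11.7 CPM in LPS 2 and LPS 3, and for Itgam, an integrin of microglia and macrophages, at 42.9 CPM against 186 and 249 CPM in LPS 2 and LPS 3. Vehicle libraries had 222, 190 and 156 CPM of Itgam. LPS 1 also had the lowest sum of astrocyte markers (1.70 CPM), neuron markers (1.74 CPM) and oligodendrocyte markers (1.12 CPM) of the 6 libraries, and the fewest genes above 0, at 18984. The called synthetase genes Sars, Aars, Cars2, Mars2 and Fars2 were called without LPS 1 as well, while Farsb (adjusted p = 0.0971), Qars (0.0646), Tars (0.113) and Lars2 (0.0726) lost their calls by edgeR's test without it.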
